A study of Homo sapiens with 4 samples.

Results

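The genes described here carry signals of the TGF-beta, activin and BMP families. They are 42 genes on a fixed list (10 ligands, 11 receptors, 4 extracellular antagonists or latency proteins, 5 SMADs, 8 inhibitors inside the cell and 4 target genes), out of 19483 genes that could be named on the array. The rule behind the list is pathway membership and takes no measured value of these arrays, although the list was drawn up with earlier results of these data known. Each listed gene had at least 1 probe, matched through the accession printed in the scanner files, and together they had 52 probes.

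TGF-beta, activin and BMP ligands are secreted dimers that bring together type II and type I receptor kinases at the cell surface. The receptors of TGF-beta and activin phosphorylate SMAD2 and SMAD3, those of BMP phosphorylate SMAD1 and SMAD5, and both kinds of SMAD enter the nucleus with SMAD4 to set transcription. In epithelial cancers, bile duct cancers among them, the pathway is known both for restraining growth and for favouring migration and matrix production.

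HuCCT1 is a line of human intrahepatic cholangiocarcinoma cells. Cells of that line received 30 nM of 1 of 4 small RNAs by lipid transfection: Pre-miR-376c, a synthetic mimic of the mature microRNA, its Pre-miR negative control, siGRB2, an siRNA to the adaptor gene GRB2, or a siRNA negative control. At 24 h all 4 cultures were given 5 ng/ml EGF in medium with 0.1% serum, and RNA was taken after a further 24 h, so all 4 groups share transfection, low serum and EGF, and no culture without EGF was measured. Each group is 1 array (200 ng RNA, single colour), all 4 on 1 slide read in 1 scan, so there is no replicate, no p-value and no SD of a group, and precision is limited by how few arrays there are. The negative controls are called the Pre-miR control and the siRNA control below. A level here is the log2 processed signal of a probe minus the array's 75th percentile. Levels are compared for 1 gene across arrays and never between genes. A difference is given with the error that the scanner software attaches to it, which is about 0.20 (log2) for most genes and covers the array's noise, not the spread between cultures.

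The microRNA that Pre-miR-376c delivers is hsa-miR-376c-3p, and its sequence is shown because its seed, bases 2 to 8 in capitals, is the stretch that pairs with target transcripts. It lies on the plus strand at chr14:101039732-101039752 (RefSeq, GRCh38.p14), and of the 2370 mature human microRNAs in the RefSeq table no other had the same seed. The sequence is given 5′ to 3′.
hsa-miR-376c-3p: aACAUAGAggaaauuccacgu

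A pair of promoters is shown because SMAD complexes bind short DNA elements and SMAD6 and PMEPA1 are inhibitors that the pathway itself induces. Each sequence is the 250 bases before a RefSeq transcription start (GRCh38.p14), given 5′ to 3′ on the gene's strand, with the motif in capitals. The window of each gene was picked from those that hold the motif, so the motif's presence there is no result. The SMAD6 window is at chr15:66701986-66702235 (plus strand) and holds the palindromic SMAD box GTCTAGAC, which begins 12 bases before the start. The PMEPA1 window is at chr20:57710578-57710827 (minus strand) and holds the CAGA element CAGACA, which begins 115 bases before it.
SMAD6: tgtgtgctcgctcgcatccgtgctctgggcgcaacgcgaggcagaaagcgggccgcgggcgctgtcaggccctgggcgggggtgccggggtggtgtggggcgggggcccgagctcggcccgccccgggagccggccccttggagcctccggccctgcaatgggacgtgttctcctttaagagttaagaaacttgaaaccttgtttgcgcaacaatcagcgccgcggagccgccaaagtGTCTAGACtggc
PMEPA1: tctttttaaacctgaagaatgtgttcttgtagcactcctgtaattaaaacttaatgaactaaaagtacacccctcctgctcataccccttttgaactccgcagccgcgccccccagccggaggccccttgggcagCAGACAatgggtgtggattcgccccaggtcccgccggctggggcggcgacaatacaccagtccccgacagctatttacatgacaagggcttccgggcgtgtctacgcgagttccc

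The SMAD box, the CAGA element and a GC-rich element were searched on both strands in such windows, of which 35116 were in the table and 79 belonged to 39 of the listed genes. The SMAD box GTCTAGAC was in 0.182% of all windows, and SMAD6 was the 1 listed gene with it. The CAGA element (CAGACA or TGTCTG) was in 13.6% of all windows and in 15 of the 79 (19%). The GC-rich element GGCGCC was in 16.4% of all windows and in 16 of the 79 (20.3%). A match is a stretch of letters, and binding was not measured.

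The cultures carried the epithelial markers the line should have. All 8 biliary epithelial markers were detected on all 4 arrays, and ALB and TTR of hepatocytes and COL1A2, COL3A1, PDGFRB and DCN of fibroblasts were detected on none. COL1A1 and LUM of fibroblasts, VWF and CDH5 of endothelium and PTPRC, CD14 and CD79A of leukocytes and APOA1 of hepatocytes were detected on all 4. CD79A was lowest on the siRNA control array (-1.12, against 0.06 to 0.30 on the others). The targeted gene GRB2 (1 probe, 1 spot) was at 0.62 with Pre-miR control, -0.10 with siRNA control, 0.07 after Pre-miR-376c and -0.65 after siGRB2, so it was lowest on the siGRB2 array. The 75th percentile signal was 2689 with Pre-miR control, 1719 with siRNA control, 2065 after Pre-miR-376c and 1995 after siGRB2, which by itself singles out no array. The siRNA control array stands apart in how many genes differ. On it, 5.7% of 13602 genes were at least 2-fold away from Pre-miR control. Against that same control the shares were 0.434% higher and 0.706% lower for Pre-miR-376c and 0.934% either way for siGRB2. For this reason values of siGRB2 against its own control are mostly given beside those against Pre-miR control.

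Most of the pathway was expressed. Of the 42 genes, 37 were detected on all 4 arrays, 2 (ACVR1B and BMP7) on some and 3 (NODAL, ACVR1C and BMPR1B) on none. ACVR1C encodes ALK7, a type I receptor through which NODAL can signal, though not the only one. None of its 3 probes, like the 1 probe of NODAL, was well above background on any array. BMP7, a ligand of the BMP group, was well above background for 1 of its 3 probes and only with Pre-miR control, at a level of -6.73. BMPR1B, a type I BMP receptor, had 1 probe and no signal well above background. The sentences on counts that follow concern the 37 genes measured on all 4 arrays, which are not all 42.

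**Figure D1:**
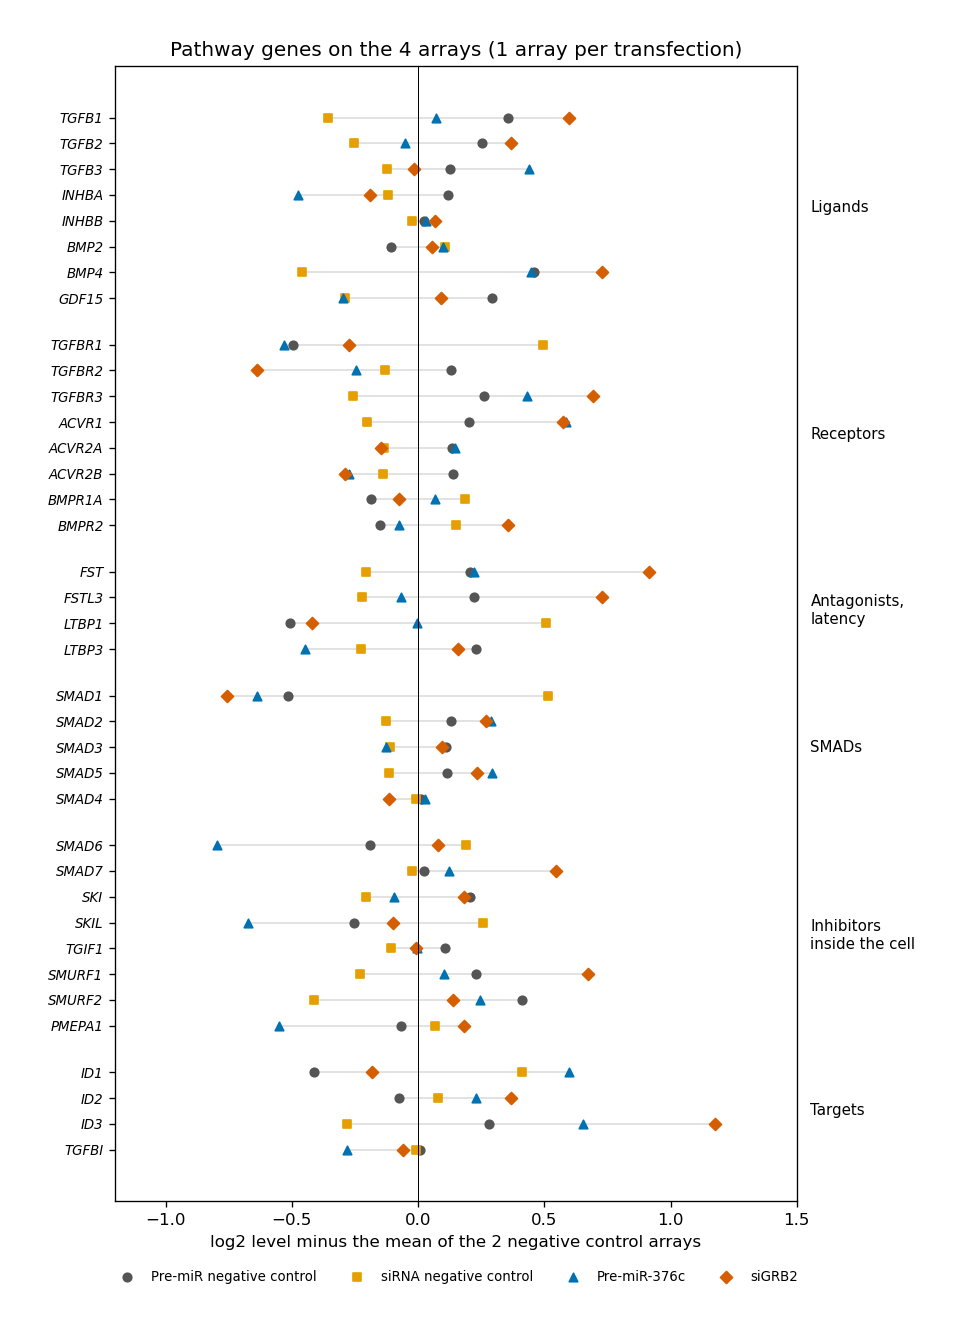
Levels of the 37 pathway genes on each array, in log2 units minus the mean of the gene's 2 negative control values (horizontal axis), with genes grouped by role (vertical axis) and 1 marker per array. The siRNA control (squares) lies at an end of the row for 24 of the 37 genes.

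With Pre-miR-376c, 1 of the 37 genes, ID1, was at least 2-fold above its own control and 0 were 2-fold lower. The same limit was passed by 0.434% of all 13602 genes upwards and 0.706% downwards. The median difference of the 37 genes was -0.04, with a range from -0.67 for LTBP3 to 1.01 for ID1, beside a median of -0.02 for all genes. The median absolute difference was 0.28 for the pathway genes and 0.19 for all genes, and against the siRNA control it was 0.28 and 0.32. For siGRB2 it was 0.39 and 0.38 against its own control and 0.24 and 0.16 against Pre-miR control. With siGRB2, BMP4, FST and ID3 were at least 2-fold above the siRNA control and SMAD1 was 2-fold below it, where 4.3% of all genes were higher and 2.44% lower by that limit. The median of the 37 genes was 0.20 beside 0.11 for all genes, and against Pre-miR control it was 0.12 beside 0.03. Against Pre-miR control 0 of the 37 were 2-fold apart with siGRB2, where 0.934% of all genes were, and their differences ran from -0.77 for TGFBR2 to 0.89 for ID3. With each array shifted to its median in place of its 75th percentile, the 3 higher and 1 lower genes for siGRB2 became 1 higher (ID3) and 3 lower (SMAD1, TGFBR1 and LTBP1), while the median of all genes moved by -0.28.

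**Figure D2:**
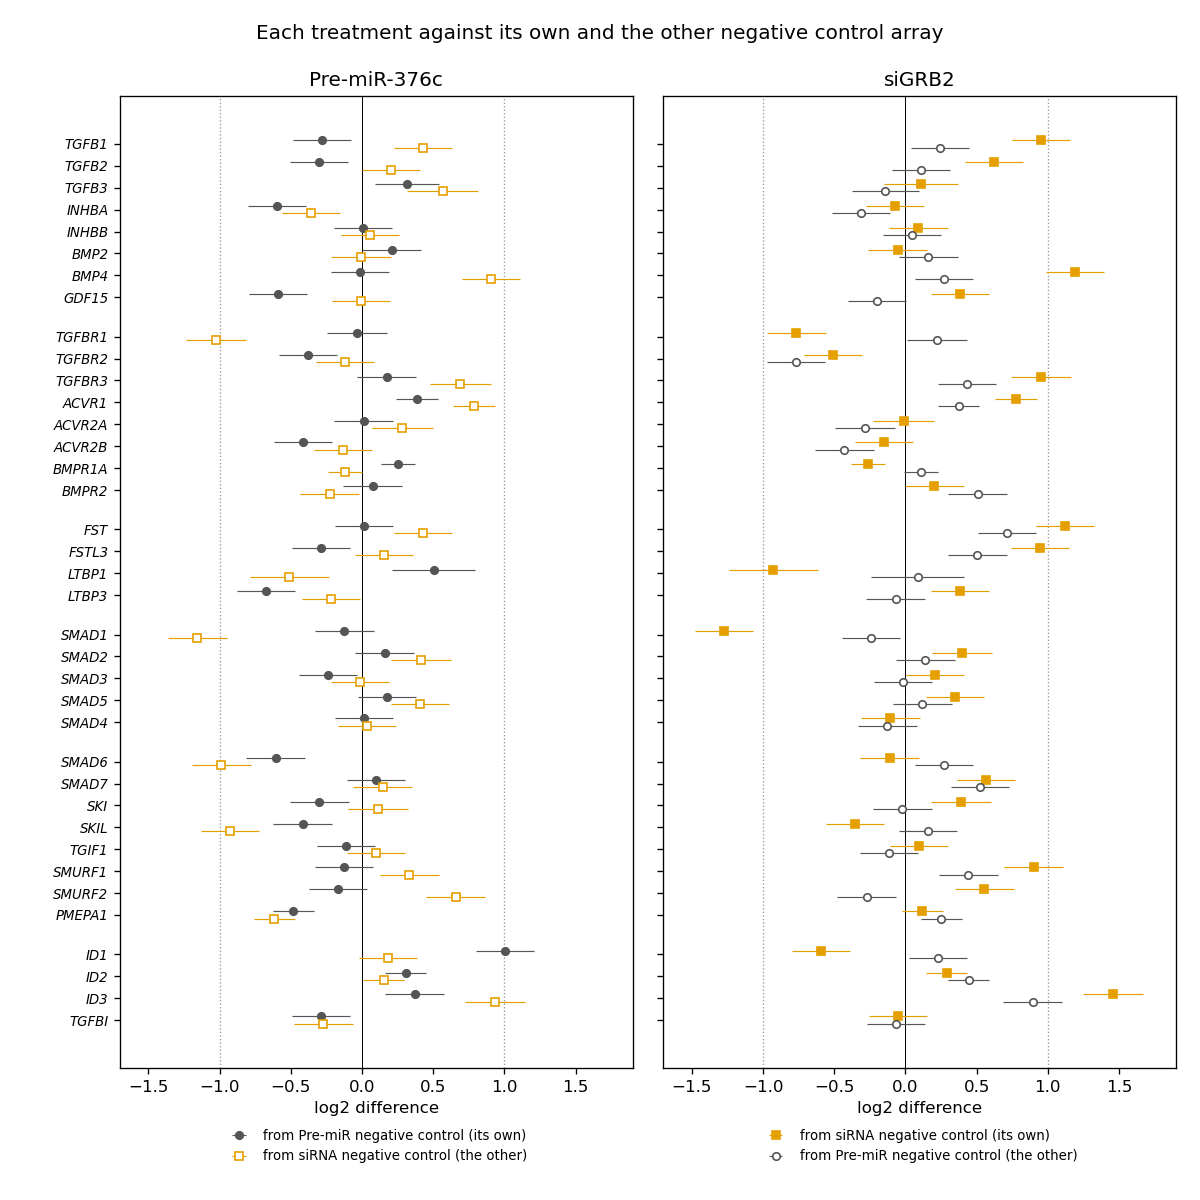
Log2 difference (horizontal axis) of each pathway gene (vertical axis) for Pre-miR-376c and siGRB2, from the treatment's own negative control (filled) and from the other one (open). Bars are the scanner software's error and dotted lines mark 2-fold, and with siGRB2 BMP4, FST, ID3 and SMAD1 pass the line against its own control and no gene does against the other.

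The ligands are taken first. INHBA encodes the beta A subunit whose dimer is activin A, and its probe is among 5 for these genes that are printed at 10 spots. Its level was 3.87 with Pre-miR control, 3.63 with siRNA control, 3.27 after Pre-miR-376c and 3.56 after siGRB2. It was lowest with Pre-miR-376c, 1.51-fold below its own control (log2 difference -0.60 ± 0.20, scanner error) and -0.36 from the other control. The 10 spots ran from 3.25 to 3.33 with Pre-miR-376c and from 3.83 to 3.92 with its control, and the SD between spots was 0.027 or less on each array. With siGRB2 the differences of INHBA were -0.07 and -0.31 from the own and the other control, the first smaller than its error. The order of INHBA, both treatments below both controls, was lost under quantile normalization and normexp background correction. The normexp setting, here and below, is followed by quantile normalization, so these settings share that step.

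TGFB1, the ligand most studied in fibrosis and cancer, was at -1.32 with Pre-miR control, -2.03 with siRNA control, -1.60 after Pre-miR-376c and -1.08 after siGRB2. Both treatments lay above the siRNA control, and Pre-miR-376c lay below the Pre-miR control (-0.28 ± 0.20). The 1.93-fold difference of siGRB2 from its own control (0.95 ± 0.20) was 1.18-fold (0.24) from the other, so it depended on the control chosen. TGFB2, a ligand of the same group, followed a like order, at 0.08, -0.43, -0.23 and 0.19 on the arrays of Pre-miR control, siRNA control, Pre-miR-376c and siGRB2. Its siGRB2 differences were 0.62 ± 0.20 from the own control and 0.11 from the other.

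BMP4, a BMP ligand, was at 0.11 with Pre-miR control, -0.81 with siRNA control, 0.09 after Pre-miR-376c and 0.38 after siGRB2. The siRNA control array was low and the other 3 arrays lay close together. BMP4 was 2.28-fold higher with siGRB2 than with its own control (1.19 ± 0.20) and 1.21-fold (0.27) higher than with the other control, and the 2 controls themselves differed by -0.92. The first of these fell below 2-fold with the median shift (0.91) and with normexp background correction (0.93).

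GDF15, a stress-induced cytokine of the same superfamily, was at 0.85 with Pre-miR control, 0.27 with siRNA control, 0.26 after Pre-miR-376c and 0.65 after siGRB2. Pre-miR-376c was 1.5-fold below its own control (-0.59 ± 0.20) and level with the other (-0.01). INHBB, the beta B subunit of activin B, spanned only 0.09 over the 4 arrays (-0.24, -0.29, -0.23 and -0.20, controls first), which is below the scanner's error. TGFB3 and BMP2 spanned 0.57 and 0.22, and neither was 1.5-fold from its own control with either treatment.

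Among the receptors, TGFBR2, the type II receptor that binds TGF-beta itself, was at 4.30 with Pre-miR control, 4.04 with siRNA control, 3.92 after Pre-miR-376c and 3.53 after siGRB2. Both treatments were below both controls, and siGRB2 was lowest. The differences were -0.38 ± 0.20 after Pre-miR-376c and -0.51 ± 0.20 after siGRB2 from their own controls, and -0.12 and -0.77 from the other control. This order was lost under quantile normalization and under normexp background correction, which ends in the same quantile step.

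TGFBR1, the type I kinase that pairs with it, was at -3.00 with Pre-miR control, -2.01 with siRNA control, -3.04 after Pre-miR-376c and -2.78 after siGRB2. It was high on the siRNA control array alone. The 1.70-fold lower level with siGRB2 (-0.77 ± 0.21) became 0.22 above the other control, and Pre-miR-376c differed by -0.04 ± 0.21 from its own control and by -1.02 from the other.

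TGFBR3, or betaglycan, a co-receptor that presents TGF-beta and binds inhibin, was at -2.95, -3.47, -2.78 and -2.52 on the arrays of Pre-miR control, siRNA control, Pre-miR-376c and siGRB2. Both treatments were above both controls. The differences with siGRB2 were 0.95 ± 0.21 from its own control and 0.43 from the other, and those with Pre-miR-376c were 0.17 ± 0.21 and 0.69.

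ACVR1, a type I receptor for BMP and some activin signals, had 2 probes, and their mean was -2.23 with Pre-miR control, -2.63 with siRNA control, -1.84 after Pre-miR-376c and -1.85 after siGRB2. Both treatments were higher than both controls on each probe. With Pre-miR-376c the probes gave 0.38 and 0.40 against the own control, and with siGRB2 they gave 0.64 and 0.91. Against the other control, the means were 0.79 for Pre-miR-376c and 0.37 for siGRB2.

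ACVR2B, a type II activin receptor, was at -1.76 with Pre-miR control, -2.04 with siRNA control, -2.17 after Pre-miR-376c and -2.19 after siGRB2. Both treatments were below both controls, by -0.41 ± 0.20 for Pre-miR-376c and -0.15 ± 0.21 for siGRB2 from the own control. From the other control the differences were -0.13 ± 0.21 and -0.43 ± 0.20, so for each treatment the value beyond the error was the one against Pre-miR control. ACVR1B, the type I activin receptor ALK4, was well above background on 3 arrays, at -5.17 with Pre-miR control, -5.81 after Pre-miR-376c and -5.61 after siGRB2. On the siRNA control array it was not well above background, so siGRB2 was at least 1.63-fold and Pre-miR control at least 2.22-fold higher than that array, each against the higher of the lowest signal well above background there and the probe's own signal. ACVR2A, BMPR1A and BMPR2 were each, as gene means, less than 1.5-fold from the own control with both treatments. BMPR2 with siGRB2 was 0.51 above the other control.

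Outside the cell, follistatin binds and neutralizes activin, and its gene FST gave the largest difference among the antagonists. The 10 spots of its probe averaged 3.82 with Pre-miR control, 3.41 with siRNA control, 3.83 after Pre-miR-376c and 4.53 after siGRB2. The siGRB2 array was high, and its lowest spot (4.46) was above the highest spot of each other array (3.90). FST was 2.18-fold higher with siGRB2 than with its own control (1.12 ± 0.20) and 1.64-fold higher than with the other (0.71), and with Pre-miR-376c the differences were 0.02 and 0.43. With the median shift, the difference of FST from the own control was 0.84. FSTL3, a follistatin-like activin antagonist, was at 1.43, 0.99, 1.14 and 1.93 on the arrays of Pre-miR control, siRNA control, Pre-miR-376c and siGRB2. It too was highest with siGRB2, 1.93-fold above its own control (0.95 ± 0.20) and 1.42-fold (0.51) above the other.

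**Figure D3:**
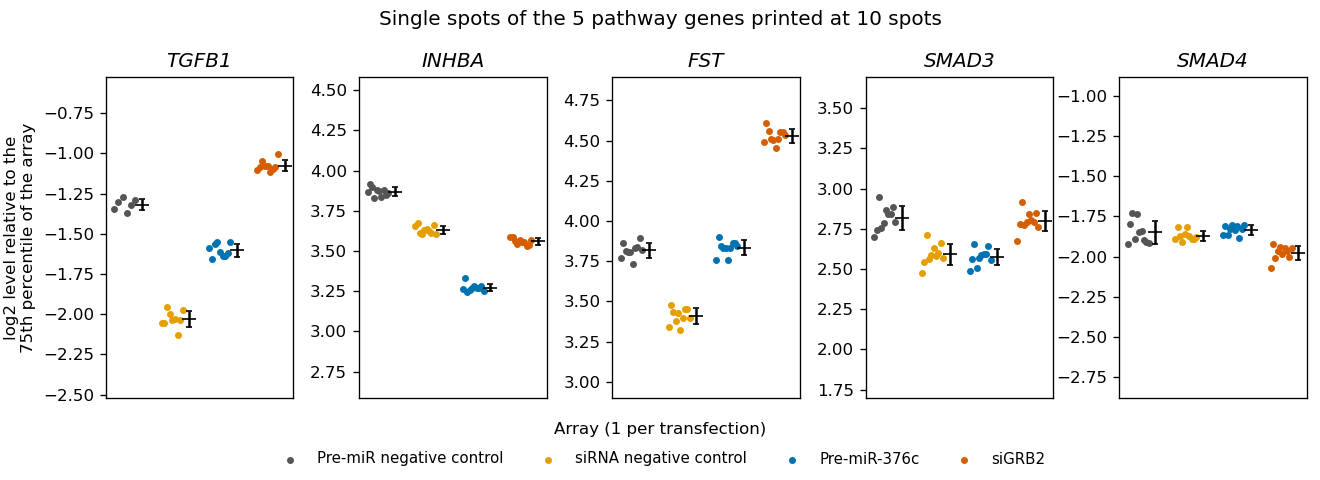
Single spots (points) of the 5 pathway genes whose probe is printed at 10 spots, in log2 units relative to the array's 75th percentile (vertical axis), for each array (colour), with the mean and SD of the spots in black and spots with an outlier flag left out. INHBA is lowest with Pre-miR-376c and FST highest with siGRB2, and spots of an array scatter by an SD of 0.075 or less.

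LTBP1 and LTBP3 encode proteins that hold TGF-beta latent in the matrix. LTBP3 was at -1.05 with Pre-miR control, -1.50 with siRNA control, -1.72 after Pre-miR-376c and -1.12 after siGRB2. It was lowest with Pre-miR-376c, 1.60-fold below the own control (-0.67 ± 0.20) and -0.22 from the other, and its siGRB2 value lay between the controls. LTBP1 was measured by 1 of 2 probes, at -5.83, -4.82, -5.33 and -5.75 in the same order of arrays, near the lowest detected signals. Its siRNA control was highest, so siGRB2 differed by -0.93 ± 0.31 from its own control and by 0.08 from the other.

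Of the SMADs, SMAD1, which carries BMP signals, was at -1.32 with Pre-miR control, -0.29 with siRNA control, -1.44 after Pre-miR-376c and -1.56 after siGRB2. The siRNA control was high and the other 3 arrays lay together. SMAD1 was 2.42-fold lower with siGRB2 than with its own control (-1.27 ± 0.20) and 1.18-fold lower than with the other (-0.24), and with Pre-miR-376c it was 1.09-fold (-0.12 ± 0.20) and 2.23-fold (-1.16) lower. Between the 2 controls, SMAD1 and LTBP1 were the 2 of 37 genes at least 2-fold apart, beside 5.7% of all genes. Both fell short of the limit with the percentile taken over detected probes (0.96 and 0.94).

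SMAD2, of the TGF-beta and activin branch, was at -3.09, -3.34, -2.93 and -2.95 and SMAD5, of the BMP branch, at -0.98, -1.21, -0.81 and -0.86, each on the arrays of Pre-miR control, siRNA control, Pre-miR-376c and siGRB2. Both genes were above both controls with both treatments, by 0.18 or less from the Pre-miR control, which is within the error. From the siRNA control, SMAD2 differed by 0.42 ± 0.21 after Pre-miR-376c and 0.40 ± 0.21 after siGRB2, and SMAD5 by 0.41 ± 0.20 and 0.35 ± 0.20, all beyond the error. SMAD3, at 10 spots, was at 2.82, 2.59, 2.58 and 2.80 in that order, with differences of -0.24 ± 0.20 after Pre-miR-376c and 0.21 ± 0.20 after siGRB2 from the own control, and of -0.02 for each from the other. SMAD4, the shared partner, also at 10 spots, spanned 0.14 over the 4 arrays (-1.85, -1.87, -1.83 and -1.98), less than the scanner's error of a difference.

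Inside the cell, 7 of the 8 inhibitors were lower with Pre-miR-376c than with its own control, with a median of -0.23. Against the other control 3 of the 8 were lower. Of all 37 genes, 20 were lower than with the own control and 16 lower than with the other. The medians of all 13602 genes were -0.02 and 0.06. The median shift made the 7 of 8 inhibitors 6 of 8. With siGRB2, 6 of the 8 inhibitors were higher than its own control and 5 of 8 higher than the other. With the median shift 4 were higher and 4 lower than its own control. Of all 37 genes, 23 were higher with siGRB2 than with its own control and 23 higher than with the other. The medians of all genes were 0.11 and 0.03. The share of all genes higher or lower was not counted, so these counts are no result about the inhibitors. SMAD6, the inhibitory SMAD of the BMP branch whose promoter window holds the SMAD box shown above, was at -2.76 with Pre-miR control, -2.38 with siRNA control, -3.37 after Pre-miR-376c and -2.49 after siGRB2. It was lowest with Pre-miR-376c, 1.52-fold below its own control (-0.61 ± 0.21) and 1.98-fold below the other (-0.99). SMAD6 with siGRB2 lay between the controls, at -0.11 and 0.27 from the own and the other.

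SKIL, the repressor SnoN that binds SMADs, had the same order, at -1.01, -0.50, -1.43 and -0.86 on the arrays of Pre-miR control, siRNA control, Pre-miR-376c and siGRB2. Pre-miR-376c was lowest, by -0.42 ± 0.20 from its own control and -0.93 from the other, and siGRB2 was at -0.36 and 0.16. PMEPA1, a membrane protein that keeps SMAD2 and SMAD3 from the receptor, had 2 probes, and its promoter window above was picked because it holds the CAGA element. The first probe was at 4.97, 5.43, 4.41 and 5.12 and the second at 3.49, 3.30, 3.08 and 3.85, in the same order of arrays. Both were lowest with Pre-miR-376c, by -0.56 and -0.41 from the own control, a mean of 1.4-fold. With siGRB2 the probes parted, at -0.32 and 0.55 from the own control, and were at 0.14 and 0.36 from the other. SMAD6, SKIL and PMEPA1 were thus below both controls with Pre-miR-376c and not with siGRB2, each difference from the own control being larger than its scanner error. LTBP3, GDF15, SMAD3 and TGFBR1, which are not inhibitors inside the cell, had this order too. Of these, TGFBR1 differed from the own control by less than its error. GDF15 and SMAD3 were level with the siRNA control (-0.01 and -0.02). The share of all genes with this order was not counted, so it is no result about the inhibitors.

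SMAD7, the inhibitory SMAD that acts on TGF-beta receptors, was at -0.44, -0.48, -0.34 and 0.09 on the arrays of Pre-miR control, siRNA control, Pre-miR-376c and siGRB2. The siGRB2 array was high, by 0.57 ± 0.20 from its own control and 0.52 from the other, so here the choice of control mattered little, and Pre-miR-376c differed by 0.10 ± 0.20. SMURF1, a ubiquitin ligase that marks SMADs for destruction, was at -2.69, -3.15, -2.82 and -2.25 in that order. It too was highest with siGRB2, 1.87-fold above its own control (0.90 ± 0.21) and 1.36-fold (0.44) above the other.

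SMURF2, its relative, was at -1.93, -2.76, -2.10 and -2.21 and lowest in the siRNA control, so siGRB2 was 0.55 above its own control and -0.27 from the other. SKI, a SMAD repressor, and TGIF1, a homeodomain repressor, were each less than 1.5-fold from the own control with both treatments.

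The ID genes encode inhibitors of differentiation that BMP signals induce. ID1 was at 0.48 with Pre-miR control, 1.3 with siRNA control, 1.49 after Pre-miR-376c and 0.71 after siGRB2. Pre-miR-376c and the siRNA control were high and the other 2 arrays low. ID1 was 2.01-fold higher with Pre-miR-376c than with its own control (1.01 ± 0.20) and 1.14-fold (0.18) higher than with the other, and with siGRB2 it was 1.51-fold lower than its own control (-0.59 ± 0.20) and 0.23 above the other. Since 1.01 lies at the 2-fold limit, ID1 passed it or not by the scaling: the difference was 0.995 under quantile normalization, 0.997 with the percentile taken over detected probes, 0.86 with normexp background correction and 1.12 with the median shift.

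ID3 was at -2.93 with Pre-miR control, -3.49 with siRNA control, -2.56 after Pre-miR-376c and -2.04 after siGRB2. Both treatments were above both controls, and siGRB2 was highest. ID3 was 2.74-fold above its own control with siGRB2 (1.46 ± 0.21) and 1.86-fold above the other (0.89), the highest value of the 37 genes in each of those comparisons. The first was 0.74 with normexp background correction, and 0.95 when 7 spots of bright local background were also left out, a setting chosen after seeing the data. With Pre-miR-376c it was 1.29-fold (0.37 ± 0.21) and 1.91-fold (0.93) higher, so ID1 and ID3 were not ordered alike over the 4 arrays.

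ID2 had 2 probes, at 0.34, 0.13, 0.58 and 0.83 and at -0.79, -0.26, -0.42 and -0.39 on the arrays of Pre-miR control, siRNA control, Pre-miR-376c and siGRB2. Both probes were higher after Pre-miR-376c (0.24 and 0.37) and after siGRB2 (0.49 and 0.40) than with Pre-miR control. From the siRNA control they parted, one at 0.70 and the other at -0.12 for siGRB2. TGFBI, a matrix protein named for its induction by TGF-beta, was at 6.29, 6.27, 6.0 and 6.22 in the same order of arrays and lowest with Pre-miR-376c, by -0.29 ± 0.20 from its own control and -0.27 from the other. Its order was lost under the same settings as that of INHBA.

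**Figure D4:**
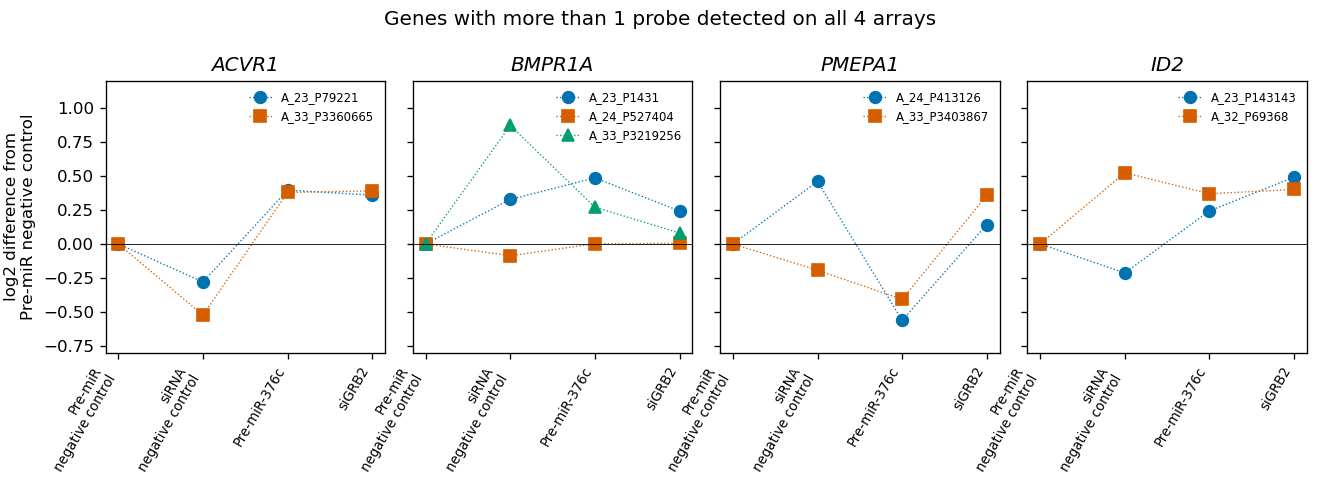
Log2 difference from Pre-miR control (vertical axis) on each array (horizontal axis) for the 4 genes with more than 1 probe detected on all arrays, 1 marker and dotted line per probe. The probes of BMPR1A, PMEPA1 and ID2 part on the siRNA control array and lie closer on the other arrays.

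Probes of 1 gene gave a measure of how far a value depends on the probe. For Pre-miR-376c against its own control the probes of ACVR1, BMPR1A, PMEPA1 and ID2 had the same sign in all 4 genes, with a spread of 0.48 or less. For siGRB2 against its own control, the probes of BMPR1A, PMEPA1 and ID2 had opposite signs, with spreads of 0.88, 0.87 and 0.83. The same 3 genes had opposite signs between the 2 controls (0.96, 0.65 and 0.74), while for siGRB2 against Pre-miR control the 4 genes had the same sign and spreads of 0.24 or less. The probes of these genes therefore parted on the siRNA control array, and why was not tested.

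Both treatments were below both controls for 5 of the 37 genes (INHBA, TGFBR2, ACVR2B, SMAD1 and TGFBI, 13.5%), beside 13.6% of all genes. Both were above both controls for 9 (INHBB, TGFBR3, ACVR1, FST, SMAD2, SMAD5, SMAD7, ID2 and ID3, 24.3%), beside 20.1% of all genes. The siRNA control was at an end of the 4 values for 24 of the 37 (64.9%), beside 74.4% of all genes. For ID2 the order above both controls is that of the gene mean, and its second probe was highest on the siRNA control array. These shares are near those of all genes and are no result about the pathway. The order held under each of 9 alternatives for TGFBR3, ACVR1, ACVR2B, SMAD1, SMAD2, SMAD5 and ID3, and was lost under at least 1 for the other 7. FST and INHBB were above Pre-miR control by only 0.02 and 0.01 with Pre-miR-376c.

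The other pairings of arrays share these same arrays and their values stand only side by side. For Pre-miR-376c against siRNA control, TGFBR1 (-1.02) and SMAD1 (-1.16) were at least 2-fold lower and no gene of the 37 was higher, beside 4.57% of all genes either way. For siGRB2 against Pre-miR-376c, 0 of the 37 were 2-fold apart, beside 0.956% of all genes, and the differences ran from -0.78 for ID1 to 0.88 for SMAD6. On those 2 arrays, then, ID1 was higher with Pre-miR-376c, and SMAD6, FSTL3 (0.80), PMEPA1 (0.73) and FST (0.70) were higher with siGRB2.

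A second fixed list held other genes of the pathway, of which all but 1 (106) had a probe and 73 were detected on all 4 arrays. With Pre-miR-376c, 1 of the 73 was at least 2-fold above its own control and 3 were below it (BMP1, COL1A1 and THBS1), with a median of -0.17, beside 0.434% higher, 0.706% lower and a median of -0.02 for all genes. The 1 higher gene was ATOH8, a transcription factor that BMP signals induce, at -6.41 with Pre-miR control, -6.20 with siRNA control, -3.48 after Pre-miR-376c and -5.89 after siGRB2. ATOH8, measured by 1 probe, was high on the Pre-miR-376c array alone, by 2.93 from its own control and 2.72 from the other. Its levels on the other arrays lay near the lowest detected signals there (-6.99 with Pre-miR control, -6.32 with siRNA control and -6.43 after siGRB2). The size of these differences therefore rests on values near that limit, and their scanner error is not given here. With siGRB2, 5 of the 73, not named here, were at least 2-fold above its own control and 3 were below it (ANGPTL4, HEY1 and TRIM33). The median was 0.27, beside 4.3% higher, 2.44% lower and a median of 0.11 for all genes. Against Pre-miR control, 1 was higher (LTBP2) and 0 were lower, beside 0.934% of all genes either way. COL1A1 is also among the fibroblast markers above, and its part in the result was not tested.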

How the data were processed

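HuCCT1 cells were measured on 4 single-colour Agilent arrays, 1 per transfection. The authors deposited the processed intensity of each spot from Agilent Feature Extraction (10.7.3.1), which had already subtracted background, with quality flags, and a table of log2 values from GeneSpring GX shifted to the 75th percentile. Differences of the 42 listed genes' probes computed here and from the deposited log2 table agreed within 0.02 after a constant per comparison (-0.036 for Pre-miR-376c and 0.079 for siGRB2). The deposited detection flags were used as given, and a shift of all values of an array moves every gene by the same amount.

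Log2 intensities were shifted to the 75th percentile over non-control spots. Outlier flags removed 289 to 329 spots on each array, and the remaining spots of a probe were averaged. A probe was detected when more than 0.5 of its spots were well above background. A gene's value was the mean of its probes detected on all 4 arrays, and 13602 genes had one. Detected member genes numbered 37 to 39 per array. Names came from accessions through RefSeq (GRCh38.p14, names and sequences only), which named 25422 of 34127 probes. No test was made across arrays, and at least 2-fold was used as the limit of size. All 37 measured genes are given, with values on every array for those 1.5-fold apart, on one side of both controls, or chosen for their role. Python (3.11.15), pandas (2.3.3), R (4.3.3) and limma (3.58.1) were used, and the calculation was tested on simulated data. Alternatives were other scalings, normexp background correction (offset 50), the deposited values, other probe, flag and detection rules, the other control and a 1.5-fold limit. The normexp values were quantile normalized after background correction. The genes, lists and limits were chosen with earlier results of these data known.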

Additional observations from a re-analysis of the deposited data

How the results depend on the processing

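No paired analysis was possible because each transfection is 1 array, and for the same reason no array could be left out of a group. For Pre-miR-376c against its own control, the count of genes at least 2-fold apart, 1 as reported, was 0 under quantile normalization, with the percentile over detected probes, with normexp background correction and with normexp without 7 spots of bright local background, an alternative chosen after seeing the data. It was 2 against the other negative control (TGFBR1 and SMAD1) and 5 with a 1.5-fold limit, which 7.8% of all genes passed. The median difference, -0.04 as reported, was 0.077 with the median shift, which moved the median of all genes by 0.11, and 0.10 against the other control. For siGRB2 the count, 4 as reported, was 2 with normexp (BMP4 at 0.93 and ID3 at 0.74 falling short), 0 against the other control, 5 with the deposited values (LTBP1 added), 6 under quantile normalization (FSTL3 and LTBP1 added) and 13 with the 1.5-fold limit, which 28.5% of all genes passed. The median, 0.20 as reported, was -0.080 with the median shift, 0.082 with normexp and 0.083 with the added normexp setting. Between the controls the count, 2 as reported, was 4 with the median shift, 0 with the percentile over detected probes, 0 with normexp, 1 with the added normexp setting and 7 with the 1.5-fold limit (25% of all genes). The causes of these moves were not tested. Against the other control, 32 of 37 single genes moved by more than their error for Pre-miR-376c and 31 of 37 for siGRB2. Against the own control, the median shift moved 36 of 37 for siGRB2. Quantile normalization and normexp background correction, which includes quantile normalization, moved 12 each. For Pre-miR-376c those settings moved 0, 0 and 2. With 1 array per group and 1 probe for 33 of the 37 genes, differences near 0.20 (log2) are not detectable beyond the scanner's error, and nothing here measures the spread between cultures.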
